A study of Mus musculus with 45 samples.

Results

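Socs1, Socs2, Socs3, Cish, Pim1, Pim2, Pim3, Osm and Lrp8 were grouped as targets of the transcription factor STAT5. They were followed here through chromatin accessibility in Stag2 WT and Stag2 KO erythroblasts. They were chosen by name as STAT5 targets, with earlier results of these data known, and are 9 of the 24333 genes of the deposited table. In the KO libraries accessibility around Socs3, Pim3, Lrp8, Osm, Socs1 and Cish was higher, by between 1.42-fold and 2.09-fold, while Pim1 did not pass the test and Pim2 was slightly lower. Socs2 had scores too low to be tested over all nuclei and in WT alone was under the limit for testing in intermediate (Int) erythroblasts too; it entered the Int test through its KO level, so its value there is given as a description.

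The nuclei came from Ter119+ erythroblasts, the red cell precursors of the mouse that carry the surface protein Ter119. STAG2 belongs to cohesin, a ring-shaped complex that extrudes chromatin loops. WT (Stag2 intact) and KO (Stag2 deleted) mice had both received pIpC, and cells were taken 6 to 8 weeks after its last dose, so the agent itself is common to both groups. pIpC is a synthetic double-stranded RNA that sets off interferon signalling and is widely used to switch on Cre recombinase in blood cells; the labels used here do not give the Cre driver, the deleted exons, or the age, sex or pooling of the mice. Each genotype had 3 chromatin (ATAC) libraries from a 10x Genomics multiome, and these 6 of the 45 samples of the series were analysed.

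STAT5 is switched on in red cell precursors by erythropoietin. The hormone brings its receptor and the kinase JAK2 together, JAK2 phosphorylates STAT5, and STAT5 enters the nucleus and binds its targets. Several targets close the loop: CISH and the SOCS proteins bind phosphorylated receptors or JAK kinases and damp the signal. The PIM kinases are serine/threonine kinases that favour survival and growth, oncostatin M (Osm) is a cytokine of the interleukin-6 family, and LRP8 is a receptor for reelin and apolipoprotein E.

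The gene score is the ATAC signal summed around a gene, scaled in each nucleus. It measures how open the chromatin is and not how much RNA is made, and neighbouring genes share fragments in it. All levels below are the mean score over the nuclei of a library, rescaled so that all genes of the library sum to 1000000. Because the length scaling of the score is not given in the sources used here, levels are compared between libraries and not between genes. KO and WT were compared with limma on log2(score + 1), and p-values are Benjamini-Hochberg adjusted over all genes tested, with a threshold of 0.05. For genes with low scores, fold changes on this scale are too small. The labels do not say whether the 3 libraries of a genotype came from separate animals, so the p-values measure only the spread between these libraries. In a mean over nuclei, a change in the mix of nuclei and a change within each nucleus cannot be told apart.

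Promoter sequence from RefSeq (GRCm38.p6) was used for 7 of the 9 genes, all but Socs2 and Osm, as windows of 250 bases before an annotated transcription start. The STAT motif TTCNNNGAA, which reads the same on both strands, and the letters GATAA on either strand, the core of the GATA factor motif, were searched in them. These genes had 10 windows in all. The motif TTCNNNGAA occurred in 1 of the 10, that of Socs3, as TTCTTAGAA, from 154 to 146 bases before the start; 7.02% of all 32851 windows of this length held it. The letters GATAA were found in 1 of the 10, that of Cish, against 22.6% of all windows. Socs3 and Cish are printed for these matches, and Pim3 because it held neither and its score rose about as much as that of Socs3. All are written 5′ to 3′ on the strand of the gene, and the capitals mark the motif.

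Socs3 (chr11:117969367-117969616, minus strand): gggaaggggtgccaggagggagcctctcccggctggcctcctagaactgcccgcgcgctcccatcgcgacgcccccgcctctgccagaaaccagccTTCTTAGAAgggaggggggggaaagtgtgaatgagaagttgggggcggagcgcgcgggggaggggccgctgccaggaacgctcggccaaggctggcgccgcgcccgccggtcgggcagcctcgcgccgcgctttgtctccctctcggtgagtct

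Cish (chr9:107296409-107296658, plus strand): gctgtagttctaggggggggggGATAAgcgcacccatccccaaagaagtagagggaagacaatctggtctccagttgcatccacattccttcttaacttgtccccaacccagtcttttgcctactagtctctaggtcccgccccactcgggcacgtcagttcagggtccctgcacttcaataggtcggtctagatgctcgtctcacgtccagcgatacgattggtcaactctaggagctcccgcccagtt

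Pim3 (chr15:88861944-88862193, plus strand): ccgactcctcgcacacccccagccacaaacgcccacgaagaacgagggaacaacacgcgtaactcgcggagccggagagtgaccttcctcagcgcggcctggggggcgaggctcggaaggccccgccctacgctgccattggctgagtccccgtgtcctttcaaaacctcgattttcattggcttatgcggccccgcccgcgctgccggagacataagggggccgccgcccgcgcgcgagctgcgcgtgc

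A match is a stretch of letters and was not tested for binding. The windows of Socs1, Pim1, Pim2 and Lrp8 held neither motif, which says only that these letters are absent from those 250 bases. The GC content of the printed windows was 71.6% in Socs3, 68% in Pim3 and 55.2% in Cish.

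Libraries held 5819 to 6990 nuclei in WT and 4617 to 4925 in KO, with 46782673 to 66286151 fragments per library. The median nucleus of a library had 7122.5 to 8056 fragments in WT and 7742 to 8874 in KO. Among the 34073 nuclei, 1478 had a barcode that also occurred in another library. The score of Stag2 itself was 64.2, 65.7 and 65.9 in WT and 61.0, 65.1 and 62.4 in KO; a score summed around a whole gene cannot show the loss of a few exons, so it does not check the labels. Erythroid markers (11 measured of 12 listed, among them Klf1 and Slc4a1) were detected in every library and summed to 1976 to 2116 in WT and 1716 to 1841 in KO; 10 of the 11 were lower in KO past the threshold. Stem and progenitor markers summed to 86.0 to 110.9 in WT and 129.1 to 156.6 in KO (5 of 10 higher), and myeloid markers to 217.7 to 257.4 and 260.7 to 286.5 (4 of 10 tested higher). Among the 5 stem and progenitor markers, Hoxa9 had a WT mean of 4.81, under the limit for testing, and a KO mean of 8.23. It entered the test through its KO level, so its value is a description. Lymphoid markers summed to 102.5 to 114.0 in WT and 119.2 to 129.6 in KO (2 of 5 tested higher), megakaryocyte markers to 278.3 to 309.2 and 315.7 to 328.7 (2 of 6 tested higher and 2 lower), and mast and basophil markers to 31.2 to 36.6 and 37.0 to 38.6 (1 of 2 tested higher). Over all 17682 genes tested, 29.1% were called higher, 14.2% lower, and 55.4% did not overlap between the genotypes. No listed marker was at 0 in all 6 libraries. Over all nuclei none of these sums overlapped between the genotypes; within classes those of megakaryocyte markers (Late: 258.5 to 300.1 in WT, 294.0 to 312.9 in KO) and of mast and basophil markers (Int: 33.2 to 42.5 and 41.8 to 43.6) overlapped, and those of the other lists did not. Sums were not made for clusters. The part of these markers in the results was not tested.

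Among the feedback inhibitors, Socs3 differed most. Socs3 (chromosome 11, 117966079 to 117969366, minus strand, mm10), which blocks JAK kinases bound to receptors of the gp130 family and others, scored 31.1, 34.2 and 29.2 in WT and 65.9, 62.9 and 71.9 in KO. Every KO library was about double the WT level and the groups did not overlap. With limma the log2 fold change came to 1.06, or 2.09-fold (SE 0.066, adjusted p = 2.58e-09). It ranked 113 from the top among the log2 fold changes of the 17682 genes tested.

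Socs1 (chromosome 16, 10783808 to 10785536, minus strand), a direct inhibitor of JAK kinases and a brake on interferon signalling, scored 36.8, 46.2 and 39.1 in WT and 68.9, 58.1 and 61.4 in KO. The lowest KO library lay above the highest WT library. The log2 fold change was 0.62 (SE 0.076, adjusted p = 7.46e-06 with limma), a rise of 1.53-fold.

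Cish (chromosome 9, 107296659 to 107302784, plus strand), the first described of these inhibitors and one that competes with STAT5 for docking sites on the receptor, had scores of 116.5, 129.8 and 148.0 in WT and 179.0, 183.4 and 195.3 in KO. WT replicate 3 was the highest of its group and still below all 3 KO libraries. The log2 fold change of 0.50 (SE 0.064, adjusted p = 1.09e-05 with limma) was the smallest of the rises over all nuclei.

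Socs2 (chromosome 10, 95411490 to 95416857, minus strand), known as the brake on growth hormone signalling, was barely accessible. Its scores were 3.43, 4.63 and 3.34 in WT and 6.71, 6.13 and 5.01 in KO, so that its mean fell under the 5 needed for testing. The groups did not overlap, and no test is given for all nuclei.

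Of the PIM kinases, Pim3 rose, and Pim1 passed the test over all nuclei only after cyclic loess scaling. Pim3 (chromosome 15, 88862194 to 88865726, plus strand) scored 53.3, 69.6 and 64.6 in WT and 126.8, 129.8 and 135.7 in KO. The KO libraries lay close together at about double the WT level, and limma gave a log2 fold change of 1.06, or 2.09-fold (SE 0.068, adjusted p = 3.48e-09).

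Pim1 (chromosome 17, 29491045 to 29495465, plus strand), the PIM kinase most often named as a STAT5 target in blood cells, scored 587.0, 562.5 and 599.7 in WT and 569.6, 627.2 and 609.1 in KO. The groups overlapped, KO replicate 1 lying below WT replicates 1 and 3. The log2 fold change was 0.045 (95% interval −0.10 to 0.19, adjusted p = 0.598 with limma). It was −0.10 when libraries were centred on their median gene, with an adjusted p of 0.597, and 0.11 after cyclic loess scaling, where it passed the threshold (adjusted p = 0.0164).

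Pim2 (chromosome X, 7878306 to 7883432, plus strand) went the other way, with 55.4, 57.8 and 52.4 in WT against 50.5, 49.3 and 48.8 in KO. The groups were apart by less than 2 score units. It fell by 0.15 on the log2 scale (SE 0.053, adjusted p = 0.0292 with limma). The call was lost when WT replicate 1, WT replicate 2, KO replicate 2 or KO replicate 3 was left out (adjusted p between 0.0606 and 0.121).

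Osm (chromosome 11, 4236785 to 4241026, plus strand), the cytokine of the group, scored 29.5, 32.7 and 29.2 in WT and 56.0, 55.8 and 60.4 in KO. All 3 KO libraries stood well above the WT libraries, by 1.86-fold or 0.89 on the log2 scale (SE 0.063, adjusted p = 9.93e-09 with limma). Lrp8 (chromosome 4, 107802259 to 107876840, plus strand), the lipoprotein receptor, scored 19.99, 26.7 and 19.8 in WT and 50.3, 41.6 and 43.6 in KO. Again the groups did not overlap, and limma gave 1.001 on the log2 scale (SE 0.0999, adjusted p = 7.17e-07).

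**Figure D1:**
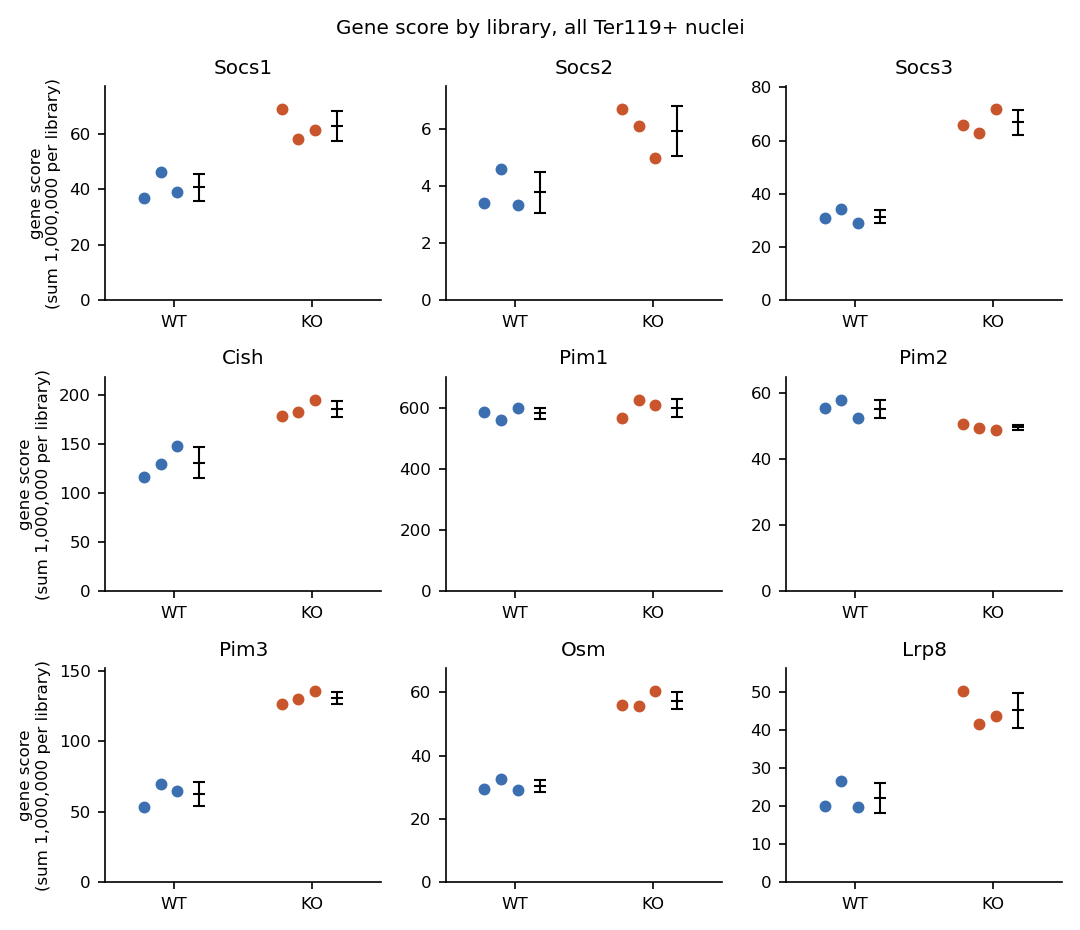
Gene score of the 9 genes in all nuclei, 1 point per library (blue WT, orange KO) on axes that start at 0, with the mean and SD of 3 libraries as a black bar beside the points. The KO points of Socs1, Socs2, Socs3, Cish, Pim3, Osm and Lrp8 lie above all WT points, those of Pim1 overlap, and those of Pim2 lie lower.

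Counted together, 8 of the 9 genes could be tested over all nuclei and 6 were higher in KO. Of all 17682 genes tested, 29.1% were called higher, and 14.2% were called lower, as Pim2 was. Because the 9 genes were chosen with earlier results of these data known, their count beside these shares is a description. The log2 fold changes of the 6 higher genes, 0.50 to 1.06, stand beside a median of 0.096 over all genes. Groups that did not overlap were common, at 55.4% of all genes. The share called higher depended on scaling: it was 17.1% with median centring, which moved the median of all genes from 0.096 to −0.050, 16% with cyclic loess and 14.4% with quantile normalization. Higher genes made up 67.1% of the calls as scaled here and 35.4%, 54% and 46.9% under those scalings. The 6 genes stayed past the threshold in the same direction under all 20 alternatives run for all nuclei.

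The authors' classes separate maturing erythroblasts into Early, Int (read as intermediate) and Late nuclei. Classes and clusters were drawn on nuclei of these libraries and may have used these genes, which limits every test within or between them. Libraries differed in the mix: Int nuclei made up 32.6% to 57.2% of a WT library and 44.2% to 48.8% of a KO library, so each class was also fitted by itself. Int nuclei were deeper in KO, at a median of 13911 to 14998 fragments per library against 10121 to 12877 in WT; in Late nuclei the medians were 6043 to 6503.5 and 5693 to 6812. Among nuclei of 5000 to 10000 fragments the 6 genes that rose over all nuclei were past the threshold in both classes, with Int log2 fold changes of 0.57 (Cish) to 1.36 (Socs3).

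In Int nuclei 6 of the 8 genes other than Socs2 were higher in KO and none was lower, against 12.7% of all 19465 genes called higher there (6.95% with median centring). Higher genes made up 64.2% of the Int calls as scaled here, and 24.4%, 57.5% and 50.7% with median centring, cyclic loess and quantile normalization. Socs3 led, with 32.5, 32.5 and 26.9 in WT and 74.7, 74.8 and 83.6 in KO, and limma gave 1.32 on the log2 scale (SE 0.071, adjusted p = 3.39e-13). Lrp8 scored 25.4, 32.7 and 21.6 in WT against 60.0, 52.0 and 52.0 in KO (log2 fold change 1.03). Osm followed with 29.98, 33.1 and 27.2 in WT against 55.7, 56.9 and 65.6 in KO (0.96). Pim3 was at 66.0, 80.3 and 69.2 in WT and at 136.3, 137.8 and 140.2 in KO (0.94).

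The smaller rises in Int nuclei were those of Cish (log2 fold change 0.56) and Socs1 (0.47). Socs2 had scores of 4.74, 5.10 and 3.95 in WT and 7.43, 8.48 and 7.34 in KO. Its WT mean of 4.59 was under the filter, so that Socs2 entered the fit through its KO level. The log2 fold change of 0.65 (SE 0.15) is therefore a description and is not counted among the rises. Pim1 (0.093, adjusted p = 0.400) and Pim2 (−0.091, adjusted p = 0.419) did not pass with limma. Leaving out WT replicate 3 brought Pim1 past the threshold at 0.14 (adjusted p = 0.0387), as did cyclic loess (0.18) and quantile normalization (0.14), while median centring gave −0.083. Pim2 passed only with median centring, at −0.27.

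In Late nuclei 8 genes could be tested; 6 were higher in KO, where 32.9% of all 15886 genes were called higher, and Pim2 was lower, where 18.5% were. With median centring, cyclic loess and quantile normalization the share called higher in Late nuclei was 25.9%, 19.6% and 17.6%, and higher genes made up 47.9%, 52.5% and 46.5% of the calls, against 64% as scaled here. Pim3 showed the largest difference, with 45.7, 57.5 and 58.2 in WT and 115.9, 123.1 and 131.4 in KO, and limma gave 1.19 on the log2 scale (SE 0.078, adjusted p = 8.38e-08). Lrp8 came next, at 16.4, 18.9 and 17.3 in WT against 36.4, 33.0 and 35.2 in KO (0.95). Osm scored 28.6, 30.4 and 31.5 in WT and 51.5, 54.8 and 55.3 in KO (0.82).

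Socs1 and Socs3 rose alike in Late nuclei. Socs1 scored 29.4, 33.3 and 28.9 in WT and 52.5, 50.04 and 58.1 in KO (log2 fold change 0.79). Socs3 scored 30.1, 33.4 and 32.2 in WT and 53.8, 53.2 and 60.5 in KO (0.79). Cish rose by 0.46 on the log2 scale, from a WT mean of 129.5 ± 13.2 to a KO mean of 177.7 ± 1.82 (SD, n = 3). Pim1 was at 0.043 (adjusted p = 0.366 with limma), and at −0.021 with median centring. Pim2 fell by 0.15 on the log2 scale (adjusted p = 0.0311 with limma), a call lost without WT replicate 2, WT replicate 3, KO replicate 2 or KO replicate 3 (adjusted p between 0.0513 and 0.140). Socs2 was under the filter, with 2.53 to 3.51 in WT and 2.67 to 4.09 in KO, overlapping.

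**Figure D2:**
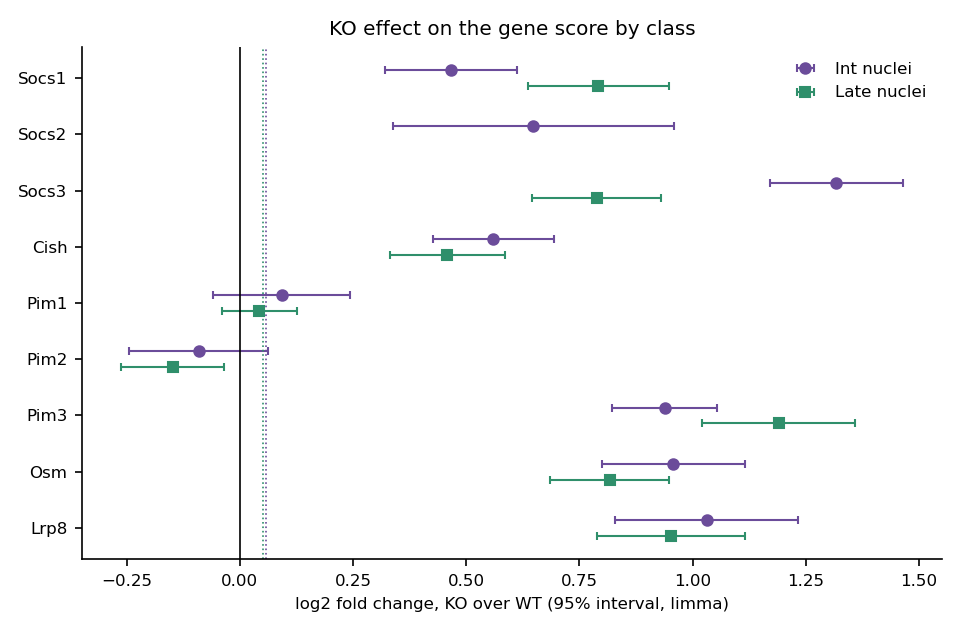
Log2 fold change of the gene score, KO over WT, with its 95% interval from limma, for each gene in Int nuclei (circles) and Late nuclei (squares); dotted lines are the medians of all genes (0.057 in Int, 0.052 in Late) and Socs2 was not tested in Late. Socs3 is at 1.32 in Int and 0.79 in Late, Socs1 and Pim3 are higher in Late, and the Pim1 intervals cover 0.

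Whether the KO effect differed between the classes was tested on the difference Late less Int within each library. Socs3 differed by −0.53 (SE 0.083, adjusted p = 6.16e-04 with limma), Socs1 by 0.32 (SE 0.085, adjusted p = 0.0248) and Pim3 by 0.25 (SE 0.065, adjusted p = 0.0220). These are 3 of 8 genes, against 6.41% of all 15873 genes called in either direction. The count of calls rested on the variance model: with a variance trend on the mean level, used here, 1017 genes passed, with a trend on the mean difference 35, and with no trend 206. Under the last 2 of these none of the 8 genes passed, the adjusted p of Socs3 being 0.0619 and 0.0529; without the filter on low scores it was 0.0756 and again none passed. Socs1 and Pim3 also lost their calls without WT replicate 1, WT replicate 2, KO replicate 2 or KO replicate 3 and in nuclei of 5000 to 10000 fragments, where Socs3 kept its call. The remaining genes did not pass, with 95% intervals of −0.21 to 0.0089 for Cish, −0.32 to 0.043 for Osm, −0.30 to 0.14 for Lrp8, −0.16 to 0.059 for Pim1 and −0.20 to 0.084 for Pim2. Pim1 was past the threshold after cyclic loess scaling (−0.11, adjusted p = 0.0378) and quantile normalization (−0.12, adjusted p = 0.0220).

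The same contrast can be read as the course from Int to Late, described here without a test because the authors' classes may have been drawn with these genes. That limit holds for the tests of the difference above too. In WT the Late score of Socs3 was 1.05 ± 0.14 times its Int score (mean ± SD, n = 3 libraries), and in KO 0.718 ± 0.0066 times. Socs1 fell to 0.607 ± 0.018 of its Int score in WT and 0.772 ± 0.12 in KO. Pim3 went to 0.750 ± 0.080 in WT and 0.894 ± 0.044 in KO. Pim2 was higher in Late than in Int nuclei in all 6 libraries, 1.78 ± 0.035 times in WT and 1.71 ± 0.081 in KO, as was Pim1, at 1.37 ± 0.027 and 1.33 ± 0.031. Lrp8 was lower in Late nuclei in all 6 libraries, at 0.675 ± 0.11 and 0.639 ± 0.035 times its Int score. Cish and Osm stayed near their Int level, at 0.966 ± 0.050 and 1.01 ± 0.13 in WT and 0.900 ± 0.057 and 0.911 ± 0.061 in KO.

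Early nuclei were few, 20 to 235 in the WT libraries and 16 to 310 in the KO libraries, and were not tested. The 3 libraries with at least 50 of them were WT replicates 1 and 2 and KO replicate 1. Socs2 had its highest class levels there, at 12.8 and 13.8 in WT and 23.9 in KO. Socs1 scored 108.0 and 99.98 in WT and 113.3 in KO, and Lrp8 59.7 and 62.9 against 73.1, each above its level in Int and Late nuclei of the same libraries. Pim1 was lowest there, at 319.6 and 321.2 in WT and 322.4 in KO. With a single KO library these values allow no statement on genotype.

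Of the authors' clusters, C2 (Late) and C5 (Int) had at least 50 nuclei in every library and could be fitted. C5 held nuclei of both genotypes, with 143 to 261 nuclei in WT libraries and 528 to 598 in KO libraries. Pim3 passed the test in C5, at 81.6, 82.5 and 81.9 in WT and 130.1, 129.4 and 132.5 in KO, a rise of 0.67 on the log2 scale (SE 0.11, adjusted p = 0.0143 with limma). This was 1 of 9 genes tested, where 0.412% of 19438 genes were called higher, and the call was lost without any 1 of the 3 KO libraries (adjusted p between 0.127 and 0.132). Socs3 scored 61.1, 26.7 and 28.9 in WT and 77.3, 68.8 and 88.1 in KO, with WT replicate 1 near the KO values. Its log2 fold change of 1.08 did not pass (adjusted p = 0.0812 with limma), and without WT replicate 1 it was 1.45 (adjusted p = 0.0015). Osm (0.81) was past the threshold without WT replicate 1 (1.06, adjusted p = 0.0173), and Cish (0.46) without WT replicate 3 (0.599, adjusted p = 0.0425).

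In C2, 0 of 8 genes and 0.0% of 17360 genes passed with limma, while 2190 genes had an unadjusted p under 0.05. WT libraries held 58 to 68 nuclei in C2, with a median of 1919.5 to 2258.5 fragments, against 6091.5 to 6594 in KO. Leaving out WT replicate 2 brought Pim3 past the threshold (log2 fold change 3.03, adjusted p = 0.0335), and leaving out WT replicate 3 did so for Osm (1.25, adjusted p = 0.0322) and Pim2 (0.72, adjusted p = 0.0398). For Pim2 this direction, also that of the fit with all libraries in C2 (0.44), was opposite to its fall in Late nuclei (−0.15).

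The other large clusters held nearly all their nuclei in 1 genotype, so clusters are set side by side as a description. Late cluster C2 in KO was compared with Late cluster C3 in WT, and Int clusters C8 and C10 in KO with C9 and C11 in WT. How well the paired clusters match was not tested. Int cluster C6, with 589 to 1609 nuclei in WT libraries and 10 to 15 in KO libraries, had no KO cluster set beside it. Its WT mean was below those of C9 and C11 for Socs3 (25.2), Osm (22.2) and Lrp8 (19.2). For Cish (142.8) and Pim1 (553.6) it was above them. Socs3 was 1.78, 2.25 and 2.57 times higher in the KO cluster of the 3 pairs. Pim3 was 2.27, 1.40 and 2.23 times higher, Osm 1.79, 1.599 and 1.96 times, and Lrp8 2.01, 1.79 and 2.03 times. For Pim3 the pair C8 and C9, the deeper Int clusters, had a WT level of 93.6 ± 6.36 in C9, against 65.6 ± 7.09 in C11 (SD, n = 3). Cish was 1.38, 1.48 and 1.59 times higher and Socs1 1.79, 1.19 and 1.44 times. Pim1 was 1.03, 1.08 and 1.13 times its WT level and overlapped in C2 and C3. Pim2 was at 0.883, 0.883 and 0.927 times, with overlap in C10 and C11. Socs2, at low scores, was 1.28, 1.87 and 1.099 times its WT level and overlapped in C2 and C3 and in C10 and C11; in C5 its log2 fold change was 0.075 (adjusted p = 0.959 with limma).

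**Figure D3:**
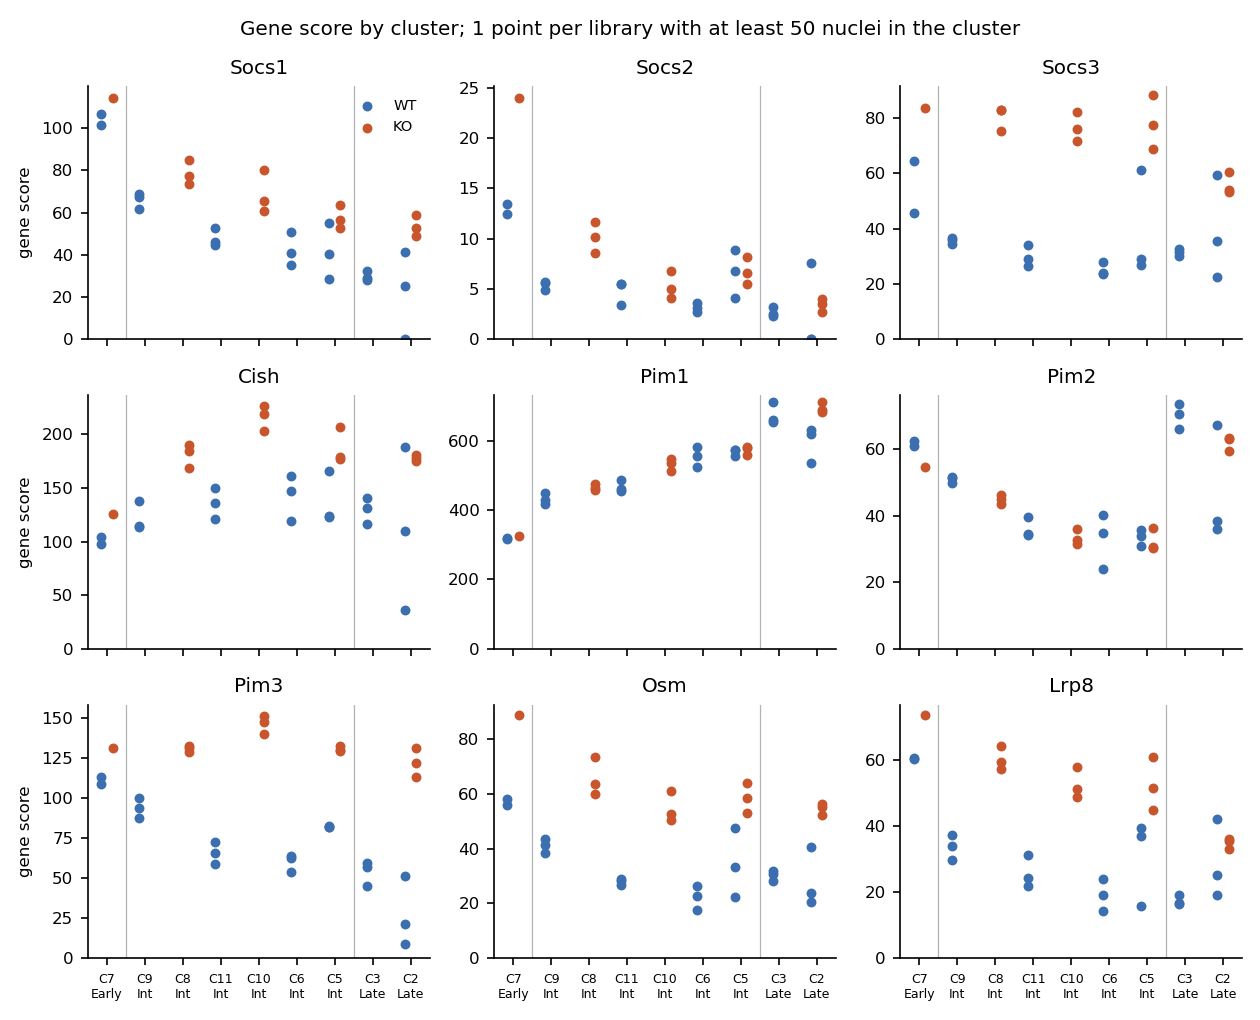
Gene score by cluster, labelled with the class that holds most of its nuclei, 1 point per library with at least 50 nuclei in the cluster (blue WT, orange KO; axes start at 0). Pim3 KO points lie between 112.9 and 150.9 in the Int and Late clusters C8, C10, C5 and C2, while Pim1 points of both genotypes overlap in C5.

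The loci themselves were examined next, because neighbours share fragments in the score and a change could cover a wide stretch. Genes whose bodies lie within 100 kb were taken as neighbours, and their counts stand beside the 29.1% of all genes called higher and the 14.2% called lower. Around Socs3, 2 of 4 neighbours rose, and the largest, Dnah17, a dynein heavy chain gene, was at 0.39 against 1.06 for Socs3. The gene next to Osm on one side, Castor1, an arginine sensor of the mTORC1 pathway, rose by 0.54, and on the other side Lif, a cytokine of the same family as Osm, by 0.37 (adjusted p = 0.00616 with limma), while the other 5 of the 7 neighbours of Osm did not pass. Near Pim3, Ttll8 rose by 0.69, Zbed4 was lower, and the other 2 of 4 did not pass. Lrp8 had 5 tested neighbours, of which 2 rose and 1 fell. The largest, Lrp8os2 at 0.49, is an antisense gene that overlaps Lrp8, and the score cannot separate the 2. The other neighbour that rose, Slc1a7, had a WT mean of 4.91, under the filter, and a KO mean of 6.63. It entered the test through its KO level, so its value is a description.

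Near Cish and Socs1 a close neighbour had nearly the same log2 fold change. Mapkapk3, 6782 bases from Cish, rose by 0.50 as Cish did, and 3 of 5 neighbours of Cish rose. Tnp2, a spermatid protein gene 2399 bases from Socs1, rose by 0.59 against 0.62 for Socs1, and 3 of 4 neighbours rose. Around Socs2, 2 of 4 rose and 1 fell, the largest being Cradd at 0.41. The other of the 2 that rose, 5730420D15Rik, had a WT mean of 4.33, under the filter, and a KO mean of 5.97. It entered the test through its KO level, so its value is a description.

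The loci of Pim1 and Pim2 differed from these. All 3 tested neighbours of Pim1 had a larger log2 fold change than Pim1 (0.045), and 2 of them rose: Tmem217 by 0.50 (adjusted p = 3.05e-06) and Tbc1d22b by 0.40 (adjusted p = 3.62e-04, both with limma). On chromosome X, 5 of the 10 tested neighbours of Pim2 fell and none rose. The largest fall was that of Mir1198, by 0.37 on the log2 scale, and Gata1, the master erythroid transcription factor 75828 bases away, fell by 0.17 (adjusted p = 0.0092 with limma), slightly more than Pim2.

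**Figure D4:**
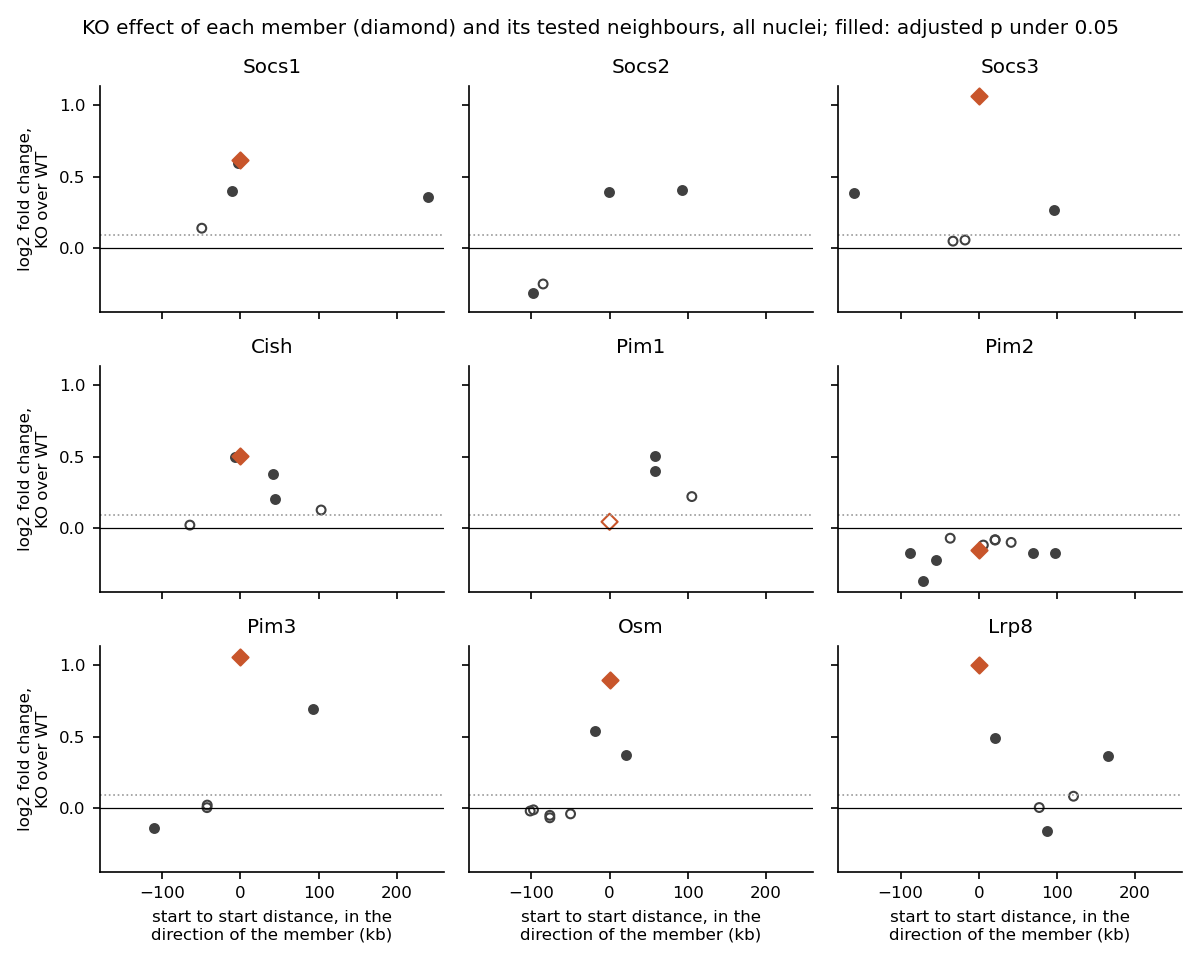
Log2 fold change in all nuclei of each gene (orange diamond) and of its tested neighbours (grey circles), against the distance between gene starts in kb, counted in the direction of the gene; filled symbols passed the threshold and the dotted line is the median of all genes (0.096). Socs3, Pim3, Osm and Lrp8 stand above their neighbours, Cish and Socs1 are level with their nearest one, and Pim1 (0.045) and Pim2 (−0.15) do not stand above theirs. Socs2 has no diamond because it was not tested.

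Of the rest of the SOCS family, Socs4, Socs5, Socs6 and Socs7, Socs5 rose (0.42, adjusted p = 0.00284), Socs4 fell by 0.18 (adjusted p = 0.00377) and Socs7 fell by 0.16 (adjusted p = 0.00581), while Socs6 was at −0.059 (adjusted p = 0.375, all with limma). These are 1 of 4 higher and 2 of 4 lower, where 29.1% and 14.2% of all genes were called, and their median log2 fold change was −0.11, beside 0.096 over all genes.

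For erythropoietin, JAK2 and STAT5 signalling, 20 genes were tested, of which 4 rose and 2 fell, with a median of 0.085. The genes of STAT5 itself, Stat5a (0.082, adjusted p = 0.560) and Stat5b (0.061, adjusted p = 0.541), did not pass with limma. Neither did Jak2 (−0.097, adjusted p = 0.0911 with limma). Epor, the erythropoietin receptor, fell by 0.25 on the log2 scale (adjusted p = 3.22e-04 with limma), from 164.2, 155.3 and 157.3 in WT to 133.1, 127.9 and 139.9 in KO, and the adaptor gene Shc1 fell by 0.12 (adjusted p = 0.0273 with limma). The rises were led by genes for β chains of cytokine receptors, the one specific to the interleukin-3 receptor (Csf2rb2) and the common β chain (Csf2rb). Csf2rb2 scored 10.3, 10.1 and 9.18 in WT and 24.3, 26.8 and 25.6 in KO (log2 fold change 1.29, adjusted p = 2.93e-08 with limma). Csf2rb scored 11.4, 11.6 and 10.0 in WT and 21.9, 25.8 and 20.6 in KO (0.98). In Int nuclei Csf2rb did not pass (0.40, adjusted p = 0.0588 with limma), and in Late nuclei it was at 1.34. Sh2b3, the adaptor LNK that restrains JAK2, rose by 0.58, from 47.1, 58.1 and 53.0 to 82.5, 76.2 and 78.9.

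Further STAT5 targets were 24 tested genes, of which 10 rose and 3 fell, with a median of 0.20. The largest was Cdkn1a, the cell cycle inhibitor p21 and a known target of p53 too, at 15.8, 20.3 and 22.1 in WT and 67.7, 59.3 and 68.8 in KO (log2 fold change 1.71, adjusted p = 7.36e-10 with limma). Oasl2, also a gene of the interferon response, rose by 1.37. Erfe, the erythroid hormone erythroferrone that lowers hepcidin, scored 29.4, 41.7 and 40.8 in WT and 81.2, 75.1 and 89.1 in KO (1.13, adjusted p = 9.55e-08 with limma). The 3 that fell were Tfrc (−0.27, adjusted p = 1.71e-04), Ccnd3 (−0.19, adjusted p = 0.00484) and Mcl1 (−0.12, adjusted p = 0.0424, all with limma). Bcl2l1 did not pass over all nuclei (−0.16, adjusted p = 0.0879 with limma) and was lower in Late nuclei (−0.14, adjusted p = 0.0238 with limma). In Late nuclei 10 of the 22 tested genes of this list rose and 5 fell, where 32.9% and 18.5% of all genes were called. The counts over all nuclei in these lists are to be read against the 29.1% of all genes called higher and the 14.2% called lower.

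**Figure D5:**
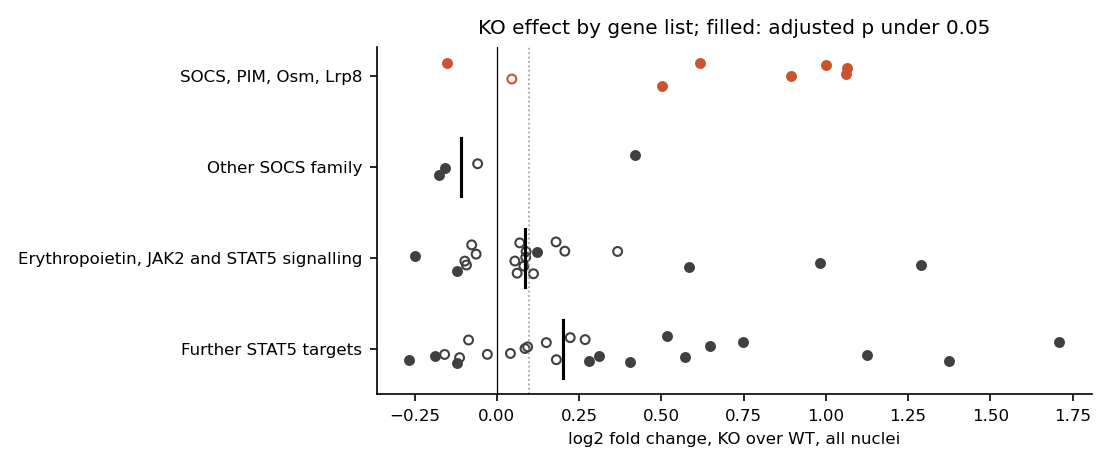
Log2 fold change in all nuclei of the tested genes of each list, 1 point per gene, filled where the adjusted p was under 0.05; points are spread vertically only for display, vertical bars are list medians (none is drawn for the 8 genes of the top row) and the dotted line is the median of all genes (0.096). The further STAT5 targets have their median at 0.20 and reach 1.71 with Cdkn1a, while the other SOCS genes have theirs at −0.11.

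Across the 12 values per gene given by Int and Late nuclei of the 6 libraries, the members fell into patterns that can be described by correlation. The points share libraries and depth. They hold both genotypes and both classes, so genes that differ alike between these correlate highly. The most alike genes below were taken from 15837 to 15859 genes compared per member. Socs3 and Osm ran closest together (Pearson r = 0.974), followed by Socs1 and Lrp8 (0.953) and by Pim3 and Osm (0.952). Pim1 and Pim2 ran together (0.920); with the others Pim1 ranged from −0.53 (Socs1) to 0.081 (Osm) and Pim2 from −0.70 (Socs1) to −0.21 (Osm). Outside the group, and leaving out genes within 500 kb of the member, the 2 genes most like Socs3 were Snx33 (0.982) and Cyb561 (0.979), those most like Socs1 were Pfkp and Crlf2 (0.986 each), and those most like Cish were Pdxk-ps (0.978) and Tnfrsf21 (0.968). Pim3 was most like Tmem51 (0.991) and Snrk (0.989), Osm like Tdrkh (0.991) and Notch3 (0.989), and Lrp8 like Dcun1d4 (0.995) and the transcription factor gene Gata2 (0.991). The closest to Pim1 were Borcs8 and Rfxank (0.993 each), and to Pim2 Ubfd1 (0.993) and Tpm1 (0.992).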

How the data were processed

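Per the labels, single nuclei of Ter119+ erythroblasts were prepared as 10x Genomics multiome libraries. The submitters' processing notes name Cell Ranger and mm10; other tools are not given in the sources used here. The deposited gene score is an accessibility signal that the authors scaled to about 10000 per nucleus (9999.855 to 10000.12). The table of nuclei, per the file headers, gives fragment counts, a doublet score, class, cluster and genotype; it was deposited in 2 copies, of which 1 was used.

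Scores were averaged per library and rescaled to 1000000. Genes with a mean of at least 5 were fitted on log2(score + 1) with limma 3.58.1 in R 4.3.3 (lmFit, eBayes with a variance trend on the mean level, two-sided), within classes and clusters of at least 50 nuclei in every library. Adjusted p-values are Benjamini-Hochberg over all genes tested. For the difference between classes the fixed design did not name the covariate of the variance trend. The mean level over both classes was used, and a trend on the mean difference was added after the data were seen. The fit of KO against WT in all nuclei was first run on simulated data. The simulated noise was independent between libraries and followed a trend on the mean level, as the fit assumes. The fit of the difference between classes was not simulated. Tables were handled in Python 3.11.15 with pandas 2.3.3 and numpy 2.4.6, and figures drawn with matplotlib 3.10.9.

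The 9 genes and all lists were chosen with earlier results of these data known; 1 further pathway list is not reported here. Named beside them by rule are, for each member, the neighbour within 100 kb with the largest change and the 2 most alike genes. From each pathway list the 3 largest changes past the threshold are named. Lif, Zbed4, Tbc1d22b, Gata1, Epor, Shc1, 5730420D15Rik, Slc1a7, Hoxa9, Tfrc, Ccnd3, Mcl1, Bcl2l1, Stat5a, Stat5b and Jak2 were named after their values were seen. Alternatives were other pseudocounts, scalings, filters, variance models, weights, doublet and depth limits, the replicate block and leaving out each library. Promoter windows come from RefSeq GRCm38.p6.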

Additional observations from a re-analysis of the deposited data

Results flagged for a closer look

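For 3 of the genes the KO effect differed between Late and Int nuclei by the test of the difference itself (limma on the within-library difference). Socs3 had the smaller effect in Late nuclei, by −0.53 on the log2 scale, with a Late less Int difference of −0.47 in KO and 0.060 in WT. Socs1 had the larger effect in Late nuclei, by 0.32, and Pim3 by 0.25. With a variance trend on the mean difference, added after the data were seen, none of them passed (adjusted p of 0.0619 for Socs3, 0.221 for Socs1 and 0.230 for Pim3), and none passed with no variance trend or without the filter on low scores. In nuclei of 5000 to 10000 fragments Socs3 passed, while Socs1 and Pim3 did not (0.16 and 0.165 on the log2 scale).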

How the results depend on the processing

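Socs1, Socs3, Cish, Pim3, Osm and Lrp8 kept direction and call in all 20 alternatives in all nuclei and all 18 in Int and in Late nuclei. Socs2, which entered the Int test through its KO level, was tested in 16 of the 18 Int alternatives. The counts that follow include Socs2 wherever it passed, although it is not counted among the rises above. It is 1 of the 7 genes past the threshold in Int nuclei in the main fit. The number of the genes past the threshold ranged from 6 to 8 in all nuclei, 6 to 8 in Int and 6 to 7 in Late. For the Late less Int difference it was 3, and 4 with cyclic loess or quantile normalization, where Pim1 was added, 0 without the filter, 0 with no variance trend, 0 with the trend on the mean difference, 1 in nuclei of 5000 to 10000 fragments and 1 to 3 when a library was left out. Leaving out a library gave 0 to 2 in C2 and 0 to 3 in C5. Direction turned for Pim1 with median centring (−0.10 in all, −0.083 in Int, −0.021 in Late nuclei) and in C5 without WT replicate 3 (−0.0024 to 0.031 over the libraries left out). For the Late less Int difference it turned for Pim2 with cyclic loess (0.064) and quantile normalization (0.055), Osm in nuclei of 5000 to 10000 fragments (0.19) and Lrp8 without WT replicate 3 (−0.18 to 0.047 over the libraries left out). In C5 it turned for Socs2 with quantile normalization (−0.19), without WT replicate 1 (−0.19) and without KO replicate 2 (−0.048; −0.19 to 0.29 over the libraries left out). None of these turned values passed the threshold, and the cause was not tested. Pim2 lost its call in 7 of 20 alternatives in all nuclei and 8 of 18 in Late nuclei.

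With the replicate block the number of genes was 7 in all nuclei, 7 in Int with Socs2 included, and 6 in Late. It was 3 for the difference, 0 in C2 and 2 in C5. Pim2 lost its call in Late nuclei (adjusted p = 0.0505 with limma) and Socs3 was past the threshold in C5 (1.08, adjusted p = 0.0229 with limma). The share of all genes called is not given for the block, weights, filters, depth limits or libraries left out. Counts of the genes under those alternatives therefore have no share to be read against. Same-numbered libraries correlated at −0.12, −0.27 and 0.21 in their deviations from the genotype means. Among all pairs of a WT and a KO library the highest value was 0.42, for WT replicate 2 and KO replicate 1. With 3 libraries per genotype these values cannot decide whether same-numbered libraries were handled together. WT libraries held few nuclei in C2 and C5, and the part of that number and of depth in the few calls there was not tested.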
